A study of Mus musculus with 12 samples.

Results

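The *Sox* genes described here are *Sox9*, *Sox5* and *Sox6*, the chondrogenic trio, with *Sox8*, a close relative of *Sox9*, and the SoxC genes *Sox11*, *Sox12* and *Sox4*. They were taken by gene symbol as 7 of 36186 gene rows, and each symbol stood on 1 row. RNA-Seq profiles came from 12 libraries of chondrocytes of mouse forelimb zeugopods at E15.5, all on a mixed 129/CD-1 background. The zeugopod is the limb segment that holds radius and ulna. WT cartilage gave 3 resting, 3 proliferative and 3 hypertrophic libraries, and *aadd* mutants gave 3. The *aadd* embryos carried homozygous frameshifts in the first exons of *Hoxa9*, *Hoxa10*, *Hoxa11*, *Hoxd9*, *Hoxd10* and *Hoxd11*, each made by a LoxP insertion with a small deletion. The mutant alleles were not limited to cartilage. Laser capture microdissection was used, and adjoining perichondrium was captured in part along with the cartilage. In *aadd* the undifferentiated chondrocytes were taken as 1 population, which the labels call resting. The labels name the hypertrophic samples hyperproliferative. The replicates are independently collected sets of compartments. How many embryos went into a set is not given in the sources used here, so a *P* value measures the spread between such sets.

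SOX proteins bind DNA through an HMG box, a domain that sits in the minor groove and bends the helix. SOX9 is required for cartilage to form, and SOX5 and SOX6, which lack a transactivation domain of their own, act beside it on genes such as *Col2a1* and *Acan*. In growth cartilage the trio is known from resting and proliferative chondrocytes, and its RNA declines as cells enlarge and mature. SOX8 shares the SoxE group with SOX9. SOXC proteins are activators known from skeletal and neural progenitors, and SOX4 is also known from osteoblast precursors.

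The HMG box is what makes these genes a family, so 60 bases of its coding sequence are shown, with capitals at the 30 positions where the 6 genes are identical. Each was read 5′ to 3′ on the coding strand from the mm10 genome and lies in 1 coding exon on the minus strand in GENCODE M21. The positions are chr6:143841214-143841273 for *Sox5*, chr7:115489703-115489762 for *Sox6*, chr17:25570163-25570222 for *Sox8*, chr12:27342199-27342258 for *Sox11*, chr2:152397516-152397575 for *Sox12* and chr13:28952782-28952841 for *Sox4*. *Sox9* is named only.
Sox5: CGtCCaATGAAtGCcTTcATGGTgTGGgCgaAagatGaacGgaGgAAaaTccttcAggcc
Sox6: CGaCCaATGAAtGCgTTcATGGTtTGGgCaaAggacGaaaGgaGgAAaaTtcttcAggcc
Sox8: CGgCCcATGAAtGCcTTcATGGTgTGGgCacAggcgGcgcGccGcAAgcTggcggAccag
Sox11: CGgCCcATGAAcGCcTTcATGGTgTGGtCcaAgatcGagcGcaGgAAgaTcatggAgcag
Sox12: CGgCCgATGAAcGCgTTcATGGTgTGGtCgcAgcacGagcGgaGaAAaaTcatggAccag
Sox4: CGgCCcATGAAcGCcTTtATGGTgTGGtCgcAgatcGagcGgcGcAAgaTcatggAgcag
Within a group the stretches matched at 50 to 54 of 60 positions, with 52 between *Sox5* and *Sox6* and 54 between *Sox4* and *Sox11*. Between groups they matched at 36 to 46. Reads with several alignments were removed by the authors.

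The genes lie on 7 chromosomes. In mm10 the rows span chr11:112782210-112787757 for *Sox9*, chr6:143828425-144781977 for *Sox5*, chr7:115471344-116038744 for *Sox6*, chr17:25565893-25570686 for *Sox8*, chr12:27334268-27342718 for *Sox11*, chr2:152393612-152398046 for *Sox12* and chr13:28950730-28953682 for *Sox4*. The *Sox4* row covers 2953 bases, against 4781 for the gene in RefSeq. This bears on the level of *Sox4* against other genes, since the values are per length. Whether it bears on differences of *Sox4* between libraries was not tested. The *Sox5* row overlaps *Sox5os3*, which reached at most 5.87 NRPKM, and the use of strand is not stated, so their reads may not be separable, and the 2 other rows that overlap *Sox5* or *Sox6* were at 0 in every library.

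RefSeq promoters (GRCm38.p6) were matched for 6 of the 7 genes, with 11 windows. Those of *Sox8*, *Sox11* and *Sox4* are shown because *Sox8* and *Sox4* moved in opposite directions in the hypertrophic libraries, and *Sox11* moved against *Sox4* within the SoxC group. Each window holds the 250 bases before the start on the minus strand, at chr17:25570687-25570936, chr12:27342719-27342968 and chr13:28953700-28953949, and capitals mark matches on either strand to a GC box (GGGCGG) or a CCAAT box (CCAAT).
Sox8: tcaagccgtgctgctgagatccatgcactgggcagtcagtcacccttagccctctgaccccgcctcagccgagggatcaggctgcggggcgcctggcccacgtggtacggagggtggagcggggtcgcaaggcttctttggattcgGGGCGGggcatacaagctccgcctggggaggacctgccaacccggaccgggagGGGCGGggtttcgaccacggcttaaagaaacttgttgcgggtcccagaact
Sox11: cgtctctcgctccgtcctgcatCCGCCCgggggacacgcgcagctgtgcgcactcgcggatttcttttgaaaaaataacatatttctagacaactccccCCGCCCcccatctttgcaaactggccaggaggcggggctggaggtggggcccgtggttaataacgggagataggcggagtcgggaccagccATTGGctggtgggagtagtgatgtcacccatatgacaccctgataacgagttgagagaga
Sox4: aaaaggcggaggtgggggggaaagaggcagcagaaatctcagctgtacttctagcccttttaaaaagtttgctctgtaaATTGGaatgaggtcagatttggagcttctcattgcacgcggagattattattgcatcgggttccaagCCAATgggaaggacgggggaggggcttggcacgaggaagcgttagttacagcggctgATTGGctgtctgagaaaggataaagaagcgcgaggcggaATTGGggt
The *Sox8* window held 2 GC boxes and no CCAAT box. *Sox11* had 2 GC boxes and 1 CCAAT box, and *Sox4* had 4 CCAAT boxes and no GC box. Of 32851 such windows 32.7% held a GC box and 33.8% a CCAAT box. GC content was 65.6%, 58% and 50.8% in the same order, against a median of 52.4%. The SOX core letters (ACAAT), found in 27.7% of windows, and the TATA box letters (TATAAA), found in 12.4%, were in none of the 3. The CCAAT and SOX core letters can overlap.

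The values are NRPKM, RPKM values (reads scaled to gene length and to mapped reads) as normalized further by the authors. The file gives no counts. From single-exon genes with few reads, a library held about 1888315 to 3237890 reads, and 1 read on 1 kb was worth 0.309 to 0.53 NRPKM. On this scale the lowest values of the 7 genes rest on about 11 and 13 reads (*Sox8*) and 38 and 76 reads (*Sox5*), all in the hypertrophic replicates 2 and 3, and every other value of the 7 on at least 45. Cartilage genes marked all groups, with *Col2a1* at 245 NRPKM or more in every library. Frameshifts need not remove RNA, and the mutated *Hox* genes were read in *aadd* at 5.17 to 52.1 NRPKM, against 0.275 to 30.5 in WT. Replicate 1 of the hypertrophic group stood apart. Over the 10936 genes that reached 5 NRPKM in 3 or more libraries, its root mean square log2 difference from replicates 2 and 3 was 1.11 and 1.04, while all other pairs within a group lay between 0.588 and 0.861. Results of the 7 genes that rest on the hypertrophic group are therefore given with and without it.

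**Figure D1:**
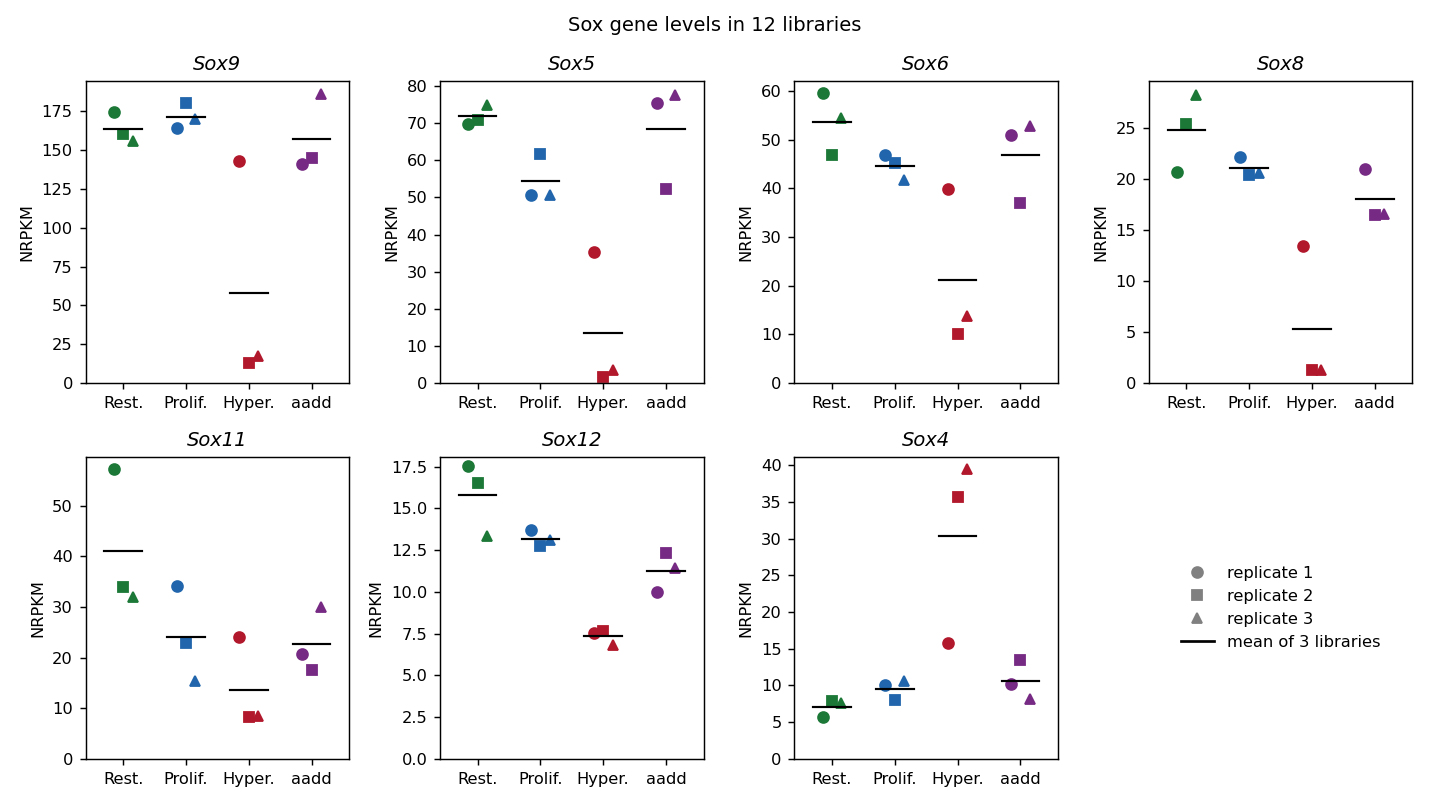
NRPKM (y axis, linear, from 0) of each *Sox* gene in 12 libraries, 3 per group, with a bar at the group mean. In *Sox9*, *Sox5*, *Sox6* and *Sox8* the hypertrophic replicates 2 and 3 lie far below the other 10 libraries, and in *Sox4* they lie above them.

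*Sox9* was the most abundant of the 7 genes per length in the resting, proliferative and *aadd* libraries. It read 174, 160 and 156 NRPKM in the resting replicates, 164, 180 and 170 in the proliferative, 143, 12.9 and 17.6 in the hypertrophic and 141, 145 and 186 in *aadd*. The resting, proliferative and *aadd* libraries overlapped, and only the hypertrophic group stood below, through replicates 2 and 3. Group means were 163 ± 9.51, 171 ± 8.05, 57.9 ± 73.8 and 157 ± 24.7 NRPKM (SD, n = 3 each).

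*Sox5*, which encodes a SoxD partner of SOX9, read 69.9, 70.9 and 74.9 NRPKM in resting, 50.5, 61.7 and 50.7 in proliferative, 35.3, 1.61 and 3.51 in hypertrophic and 75.4, 52.3 and 77.5 in *aadd* libraries. All proliferative libraries were below all resting libraries, and all hypertrophic ones were below both. *Sox6*, the other SoxD gene of the trio, read 59.5, 46.9 and 54.5 in resting, 46.8, 45.2 and 41.8 in proliferative, 40.0, 10.1 and 13.7 in hypertrophic and 50.9, 37.1 and 52.8 in *aadd*. It kept the same order of compartments with smaller steps. Over the 12 libraries the highest *Sox5* value was 48 times the lowest, while for *Sox6* this was 5.91 times and for *Sox9* 14.3 times.

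*Sox8* read 20.7, 25.4 and 28.2 NRPKM in resting, 22.1, 20.4 and 20.6 in proliferative, 13.4, 1.33 and 1.28 in hypertrophic and 20.9, 16.5 and 16.5 in *aadd* libraries. Its pattern was that of the trio at a lower level, with *Sox9* at 5.53 to 13.7 times *Sox8* in every library.

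The SoxC genes differed among themselves. *Sox11* read 57.2, 34.0 and 32.1 NRPKM in resting, 34.1, 22.9 and 15.4 in proliferative, 24.1, 8.22 and 8.46 in hypertrophic and 20.7, 17.6 and 29.97 in *aadd* libraries. *Sox12* read 17.6, 16.5 and 13.3 in resting, 13.7, 12.7 and 13.1 in proliferative, 7.53, 7.66 and 6.81 in hypertrophic and 9.96, 12.3 and 11.4 in *aadd*. *Sox12* was the only one of the 7 genes for which the hypertrophic replicates were alike, with a mean of 7.33 ± 0.456 (SD, n = 3). *Sox4* read 5.71, 7.90 and 7.68 in resting, 10.1, 7.97 and 10.6 in proliferative, 15.8, 35.7 and 39.5 in hypertrophic and 10.2, 13.5 and 8.13 in *aadd*. It was the only gene of the 7 that was higher in all hypertrophic libraries than in all others.

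By their means the resting levels ran from *Sox9* through *Sox5* (71.9), *Sox6* (53.7), *Sox11* (41.1), *Sox8* (24.8) and *Sox12* (15.8) to *Sox4* (7.09 NRPKM). The libraries of *Sox6* and *Sox11* overlapped, and those of the other neighbours did not. In proliferative libraries the order was the same, but *Sox11* (24.1) and *Sox8* (21.0) overlapped and *Sox6* (44.6) and *Sox11* did not. In *aadd* the order was again the same. There *Sox5* (68.4) overlapped with *Sox6* (46.9), *Sox11* (22.8) with *Sox8* (18.0), and *Sox12* (11.2) with *Sox4* (10.6). In the hypertrophic replicates 2 and 3 *Sox4* came first, ahead of *Sox9*, *Sox6*, *Sox11* and *Sox12*, with *Sox5* and *Sox8* last.

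Over the 4 groups, limma's moderated F test with Benjamini-Hochberg adjustment passed an adjusted *P* under 0.05 for 4 of the 7 genes, *Sox12* (adjusted *P* = 0.00567), *Sox4* (0.0121), *Sox5* (0.034) and *Sox8* (0.0346). The background was 13.8% of the 10936 genes tested, and all 7 *Sox* genes had passed the filter on low values. *Sox6* (0.0607), *Sox9* (0.0712) and *Sox11* (0.0949) did not pass. All 7 passed once hypertrophic replicate 1 was left out, with adjusted *P* between 4.8e-06 and 0.00941. The 13.8% belongs to the fit of all 12 libraries, and the share of all genes without replicate 1 is not given here. These 7 genes therefore cannot be set against a background in that fit. With another library left out 1 to 3 of the 7 passed, and it was 1 without hypertrophic replicate 2 or 3.

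The question between resting and proliferative cells was which *Sox* genes differ as resting chondrocytes become columns of dividing cells. None of the 7 was called, where a call needed an unadjusted *P* up to 0.05 and a change of at least 2-fold and 5.53% of all genes were called. *Sox5* was lower in all 3 proliferative libraries, with a log2 fold change of -0.41 ± 0.16 (SE) in limma (unadjusted *P* = 0.0388, adjusted *P* = 0.277). This 1.33-fold difference was the only one of the 7 with an unadjusted *P* under 0.05, which 17.1% of all genes had, and none of the 7 passed an adjusted *P* under 0.05, as 0.622% of all genes did. With the replicate number as a block *Sox5* had an unadjusted *P* of 0.0536 and *Sox11* of 0.00726 (adjusted *P* = 0.255 and 0.15), and again none of the 7 was called. *Sox6* was also lower in all libraries (-0.26 ± 0.16, adjusted *P* = 0.453) and *Sox4* higher in all (0.43 ± 0.21, adjusted *P* = 0.352). These 3 of 7 genes without overlap compare with 24% of all genes. For *Sox6* and *Sox4* the gaps were smaller than the counting error. The nearest proliferative and resting libraries read 46.77 and 46.9 NRPKM for *Sox6* and 7.966 and 7.897 for *Sox4*. For *Sox5* they read 61.69 and 69.86.

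*Sox9* differed between these compartments by a log2 fold change of 0.07, with a 95% confidence interval from -0.28 to 0.42. *Sox8* (-0.22) and *Sox12* (-0.25) had intervals that reached from -0.64 to 0.19 and from -0.65 to 0.16. The interval of *Sox11* was wide, from -1.65 to 0.07 around -0.79, and without proliferative replicate 1 its value was -1.08 and it was called.

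From proliferative to hypertrophic chondrocytes *Sox9*, *Sox5*, *Sox6* and *Sox8* fell and *Sox4* rose by the unadjusted criteria. These 5 of 7 genes compare with 9.67% of all genes called, 4.34% lower and 5.32% higher. The limma log2 fold changes were -2.42 ± 0.88 (SE) for *Sox9*, -3.17 ± 1.07 for *Sox5*, -1.33 ± 0.50 for *Sox6*, -2.82 ± 0.88 for *Sox8* and 1.56 ± 0.38 for *Sox4*. Unadjusted *P* values lay between 0.00586 (*Sox4*) and 0.0376 (*Sox6*), and adjusted ones between 0.153 and 0.241. No gene of the 10936 passed an adjusted *P* under 0.05 here, although 2115 (19.3%) had an unadjusted *P* up to 0.05. *Sox12* was lower in every hypertrophic library (-0.84 ± 0.16, unadjusted *P* = 0.00156, adjusted *P* = 0.12), a 1.79-fold difference that missed the fold criterion. *Sox11* had -0.94 ± 0.51 and overlapped between the groups, since its value in hypertrophic replicate 1 was 99.8% of the proliferative mean.

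The size of these differences rested on hypertrophic replicates 2 and 3. In replicate 1 *Sox9* stood at 83.5% of the proliferative mean, *Sox5* at 65%, *Sox6* at 89.6% and *Sox8* at 63.7%. In replicates 2 and 3 the same genes stood at 7.55% and 10.3%, 2.97% and 6.46%, 22.6% and 30.8%, and 6.31% and 6.1%. *Sox4* was at 165% in replicate 1 and at 374% and 413% in the others. *Sox12* did not share this split and stood at 57.1%, 58.1% and 51.7%.

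**Figure D2:**
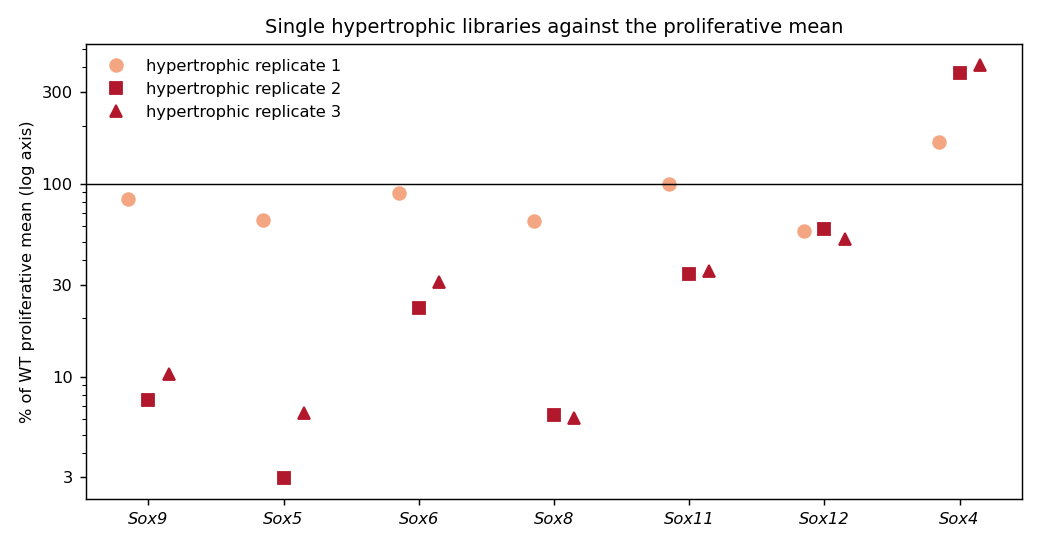
Each hypertrophic library as a percentage of the WT proliferative mean (log axis; the line marks 100%) for the 7 genes. Replicate 1 lies between 57.1% and 165%, and replicates 2 and 3 lie near each other for all genes but *Sox5*, where they stand at 2.97% and 6.46%.

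Without hypertrophic replicate 1, limma called 6 of the 7 genes, with 18.4% of all genes called, and all 7 had an adjusted *P* under 0.05, as 17.4% of all genes did. The log2 fold changes were then -3.49 for *Sox9*, -4.45 for *Sox5*, -1.91 for *Sox6*, -3.91 for *Sox8*, -1.45 for *Sox11* and 1.98 for *Sox4*, and adjusted *P* lay between 0.00184 and 0.0494. *Sox12* (-0.86, adjusted *P* = 0.0267) again missed the fold criterion. With any other library left out, the calls of *Sox9*, *Sox5* and *Sox6* were lost. That of *Sox8* was lost when proliferative replicate 1 or either of hypertrophic replicates 2 and 3 was removed, where its log2 fold change was -2.27 at the smallest. *Sox4* was called in all 6 fits that left out a library, with log2 fold changes from 1.31 to 1.98.

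Against resting chondrocytes all 7 genes were called in the hypertrophic libraries, 6 lower and *Sox4* higher, with 13% of all genes called, 7.2% lower and 5.84% higher. Both groups also stand in a comparison above. *Sox12* (-1.09 ± 0.18, adjusted *P* = 0.0246) and *Sox4* (1.99 ± 0.38, adjusted *P* = 0.0371) also passed adjustment in limma, as 6.36% of all genes did. Each did so in 7 of 14 alternatives, with adjusted *P* up to 0.116 and 0.131. *Sox11*, whose resting level was the highest of the 4 groups, fell by 1.73 on the log2 scale (adjusted *P* = 0.0846) with no overlap between the groups, which 32% of all genes showed. *Sox5* fell by 3.58, *Sox8* by 3.04, *Sox9* by 2.35 and *Sox6* by 1.59. Without hypertrophic replicate 1 all 7 were called, 19.2% of all genes were called, and the adjusted *P* values, under 0.05 for 24.2% of all genes, lay between 0.000539 and 0.0139. The call of *Sox9* was lost when any other library was left out, and that of *Sox6* without resting replicate 1 or hypertrophic replicate 3.

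The balance within the family can be read inside each library. Scaling between libraries has no part in such ratios if it was 1 factor per library, which is not stated. The summed NRPKM of *Sox9*, *Sox5* and *Sox6* was 3.77 to 6.71 times that of the SoxC genes in the resting, proliferative and *aadd* libraries and 4.61 times in hypertrophic replicate 1. It was 0.477 and 0.637 times in hypertrophic replicates 2 and 3. The SoxC sum itself stayed between 39.1 and 80.5 NRPKM in all 12 libraries, so on this scale the ratio moved mainly with the trio. Unlike the ratio, this sum depends on the scaling between libraries.

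Within the SoxC sum the share of *Sox4* was 7.09% to 14.5% in resting, 17.4% to 27.1% in proliferative and 16.4% to 31.1% in *aadd* libraries. In the hypertrophic group it was 33.3%, 69.2% and 72.1%. Resting libraries were lowest and hypertrophic ones highest, with no overlap with the groups between them, which overlapped each other. The ratio of *Sox6* to *Sox5* was 0.662 to 1.13 in 10 libraries and 6.24 and 3.92 in hypertrophic replicates 2 and 3.

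**Figure D3:**
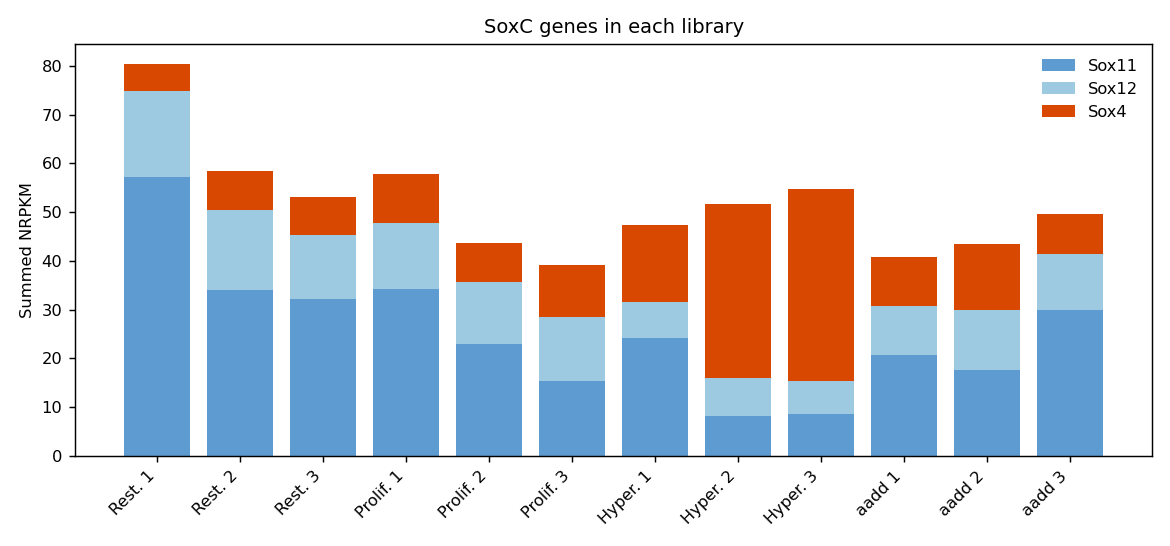
Stacked NRPKM of *Sox11*, *Sox12* and *Sox4* in each library. The height lies between 39.1 and 80.5 NRPKM, and *Sox4* makes up the larger part of the bar in hypertrophic replicates 2 and 3 only.

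Markers of other cells moved with these values. The summed NRPKM of 10 osteoclast markers was 70.3 in hypertrophic replicate 1 and 1308 and 963 in replicates 2 and 3, against 40.9 to 70.35 in the other groups. For 10 endothelial markers it was 21.7, 304 and 212, against 5 to 37.3 elsewhere, and for 10 macrophage markers 23.8, 291 and 234, against 12.5 to 39. The 8 erythroid markers summed to 63.8, 374 and 412, against 39.3 to 190, and the 10 osteoblast markers to 1209, 1767 and 2691, against 232 to 1148. The 10 skeletal muscle markers reached 19.7 to 38.1 in the hypertrophic group and 7.52 to 92.2 in the others. No marker of these lists was at 0 in all libraries. In a bulk sample fewer chondrocytes and less RNA per chondrocyte cannot be told apart, and the part of these cells in the *Sox* values was not tested.

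The 12 markers of hypertrophic chondrocytes summed to 1931, 3641 and 3993 NRPKM in the hypertrophic replicates. They summed to 734 to 1023 in the proliferative, 110 to 135 in the resting and 78.3 to 105 in the *aadd* libraries. *Mmp13*, *Spp1* and *Ibsp*, named after their values were seen, were higher in replicates 2 and 3 than in replicate 1, and without these 3 the sums were 1187, 855 and 1022 in the hypertrophic and 548 to 721 in the proliferative libraries. *Col10a1*, a collagen of hypertrophic cartilage, read 264, 166 and 221 NRPKM and *Ihh*, a signal of prehypertrophic cells, 56.3, 9.54 and 15.3. Of the 12 markers 6 were highest in replicate 1 among the hypertrophic libraries. In replicate 1, which held 63.7% to 89.6% of the proliferative trio and *Sox8* levels, 9 of the 12 were above all proliferative libraries and 2, *Mmp13* and *Vegfa*, below them all.

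**Figure D4:**
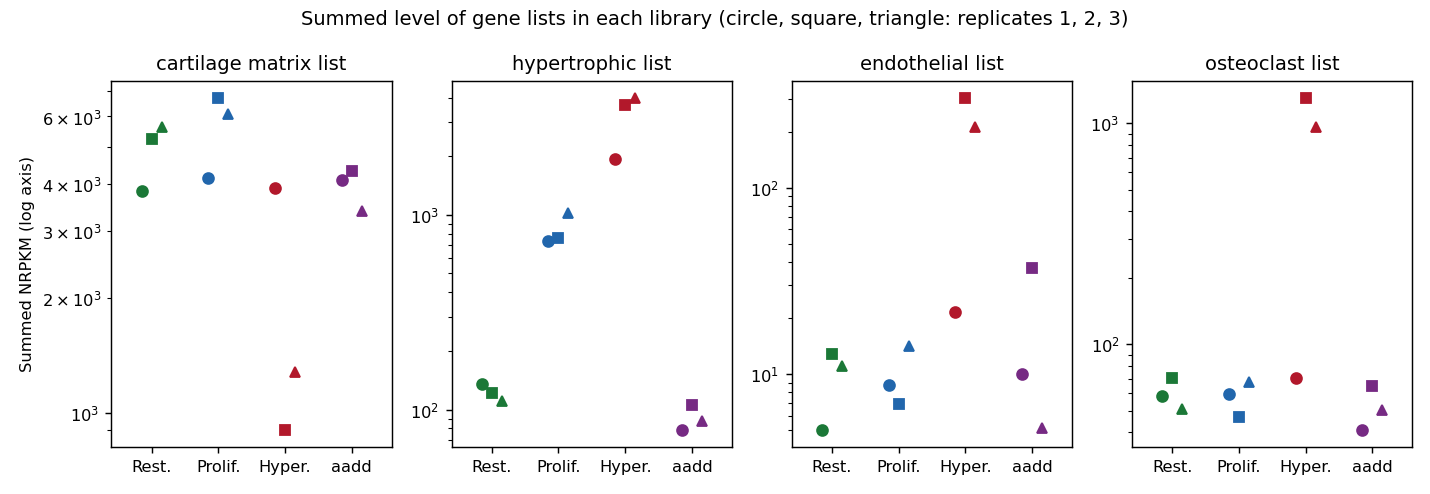
Summed NRPKM (log axes) of 18 cartilage matrix genes, 12 hypertrophic chondrocyte markers, 10 endothelial markers and 10 osteoclast markers in each library. Hypertrophic replicates 2 and 3 are lowest for matrix genes and highest for the other sums, for the hypertrophic markers through *Mmp13*, *Spp1* and *Ibsp*.

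The comparison of *aadd* with WT resting chondrocytes asked whether the *Sox* program of undifferentiated cells was altered when the *Hox* genes were mutated. *Sox9* was close in the groups, with a log2 fold change of -0.07 and a 95% confidence interval from -0.48 to 0.34. *Sox5* (-0.09, interval -0.56 to 0.38) and *Sox6* (-0.20, interval -0.68 to 0.27) were near 0 as well. Among the 7 genes *Sox11* was called, at an unadjusted *P* up to 0.05 and a change of at least 1.5-fold, with 6.56% of all genes called and 2.78% called lower. It was lower in all 3 *aadd* libraries, by a log2 fold change of -0.83 ± 0.30 (SE; unadjusted *P* = 0.0272, adjusted *P* = 0.437 in limma), which is 1.78-fold. The call was lost without resting replicate 1, *aadd* replicate 1 or *aadd* replicate 2, and the log2 fold change was between -1.05 and -0.57 over the 6 fits that left out a library.

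*Sox12* was also lower in every *aadd* library (-0.48 ± 0.18, unadjusted *P* = 0.0312, adjusted *P* = 0.454), a 1.4-fold difference under the fold criterion. *Sox4* was higher in every *aadd* library (0.56 ± 0.24, unadjusted *P* = 0.0535, adjusted *P* = 0.529). *Sox12* was called without resting replicate 3 (-0.60) and *Sox4* without *aadd* replicate 3 (0.73). The 3 SoxC genes were thus the ones without overlap, which was seen in 15.4% of all genes. The gaps were narrow. The nearest *aadd* and resting libraries read 29.97 and 32.07 NRPKM for *Sox11*, 12.31 and 13.32 for *Sox12* and 8.135 and 7.897 for *Sox4*. For *Sox4* the counting error of these 2 values was about 12.1% and 13.4%, so its lack of overlap is not secure. *Sox8* had -0.46 ± 0.19 (unadjusted *P* = 0.049, adjusted *P* = 0.52) and overlapped.

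Markers of other cells were read in the same libraries. The 10 skeletal muscle markers summed to 33.5, 46.5 and 16.3 NRPKM in *aadd* and to 8.46, 7.52 and 9.80 in resting libraries, without overlap. The lack of overlap rested on *Actc1*, a muscle actin gene, which was called higher in *aadd* (2.97, adjusted *P* = 0.096 in limma). *Actc1* read 22.74, 25.52 and 10.3 NRPKM in *aadd* and at most 3.658 in resting libraries. *Tnni1*, the other muscle marker that passed the filter, was not called and was slightly lower in *aadd*. It read 0.97 to 1.258 NRPKM in *aadd* and 1.125 to 1.986 in resting libraries, which overlapped. Replicate 2 of *aadd* had the highest endothelial (37.3), macrophage (39.0) and erythroid (190) sums of both groups. Without it the log2 fold changes were -0.67 for *Sox11*, -0.55 for *Sox12* and 0.37 for *Sox4*, none called. The part of muscle RNA in the SoxC values was not tested.

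Against WT proliferative chondrocytes none of the 7 genes was called in *aadd*, with 8.02% of all genes called at a 2-fold change, and none had an unadjusted *P* up to 0.05 in limma, which 19.2% of all genes had. The largest difference was that of *Sox5* (0.32, interval -0.20 to 0.83). *Sox11* had -0.05, with an interval from -0.86 to 0.77, and *Sox12* -0.23, with an interval from -0.63 to 0.16. The *aadd* means of the SoxC genes were nearer to the proliferative than to the resting means, without a test of these positions. Seen from resting they lay beyond the proliferative means, at 22.8 and 24.1 NRPKM for *Sox11*, 11.2 and 13.2 for *Sox12* and 10.6 and 9.55 for *Sox4*. *Sox12* read at most 12.31 in *aadd* and at least 12.73 in proliferative libraries, a lack of overlap whose share over all genes is not given for this pair. *Sox4* in *aadd* replicate 3 was nearer to the resting mean.

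Against WT hypertrophic chondrocytes 5 of the 7 genes were called, with 13.3% of all genes called, 7.39% higher and 5.93% lower. *Sox9* (2.28 ± 0.87), *Sox5* (3.48 ± 1.05), *Sox6* (1.38 ± 0.51) and *Sox8* (2.59 ± 0.87) were higher in *aadd* and *Sox4* (-1.43 ± 0.40) lower. Adjusted *P* values of these 5 in limma lay between 0.0831 and 0.169. *Sox12* (0.60) and *Sox11* (0.89) were not called. Without hypertrophic replicate 1, which for *Sox9* (143 NRPKM) and *Sox6* (40.0 NRPKM) lay among the *aadd* values, 6 genes were called and 19.9% of all genes were. With any other library left out, the calls of *Sox9*, *Sox6* and *Sox8* were lost and those of *Sox5* and *Sox4* kept.

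The cartilage matrix genes that the trio is known to activate were read from a list of 20 symbols, of which 18 were in the table and all passed the filter. From proliferative to hypertrophic chondrocytes 16 of 18 fell and none rose by the unadjusted criteria, with a median log2 fold change of -2.06 against 0.04 over all genes, and 13 did not overlap, against 24.2% of all genes. None passed adjustment in limma. Without hypertrophic replicate 1, 17 fell and 16 passed adjustment, with a median of -2.70. Of all genes 18.4% were then called in either direction and 17.4% passed adjustment. *Matn3*, a matrilin, had the largest called change (-2.68), followed by *Chadl* (-2.32), *Lect1*, which encodes chondromodulin (-2.31), and *Matn1* (-2.30). *Col2a1*, the main cartilage collagen, read 898, 245 and 343 NRPKM in the hypertrophic libraries and 894 to 1530 in the proliferative.

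In 17 of the 18 matrix genes hypertrophic replicates 2 and 3 both lay below replicate 1. The exception was *Col11a2*, at 49.5%, 27.9% and 52.5% of the proliferative mean. The median of the 18 was 58.4% of the proliferative mean in replicate 1, with a range from 26% to 113%, and 12.9% and 16.7% in replicates 2 and 3, which reached up to 29.9% and 52.5%. *Hapln1*, which encodes the link protein, held the highest share in replicate 1 (113%). Against resting chondrocytes 15 of the 18 fell, against 7.2% of all genes, and 2 of them had an adjusted *P* under 0.05, against 6.36% of all genes. All 18 fell and 16 passed once hypertrophic replicate 1 was left out. Of all genes 19.2% were then called in either direction and 24.2% passed adjustment.

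Between proliferative and resting chondrocytes 1 matrix gene rose, *Comp* (1.16, adjusted *P* = 0.229), and 1 fell, *Ucma* (-3.06, adjusted *P* = 0.285). Of all genes 5.53% were called there. With the replicate block *Ucma* had an adjusted *P* of 0.0388. In *aadd* against resting *Ucma*, a gene of early and resting chondrocytes, was the only one of the 18 called (-2.38, adjusted *P* = 0.437), against 6.56% of all genes. It read 16.9, 205 and 91.6 NRPKM in resting and 9.18, 19.6 and 12.3 in *aadd* libraries, which overlapped. All 18 had a negative log2 fold change there, with a median of -0.33 against 0.01 over all genes. In *aadd* against hypertrophic cells 11 of the 18 were higher, against 7.39% of all genes, and none lower. Without hypertrophic replicate 1, 15 were higher, where 19.9% of all genes were called in either direction. In *aadd* against proliferative cells *Comp* alone was called (-1.47), against 8.02% of all genes.

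Of 16 genes that encode cofactors or regulators of SOX9, 12 passed the filter. From proliferative to hypertrophic cells *Wwp2*, a ubiquitin ligase gene that hosts a cartilage microRNA, was the only one called (-1.87, adjusted *P* = 0.176), against 9.67% of all genes. With hypertrophic replicate 1 left out *Arid5b* (1.51, adjusted *P* = 0.0378), *Pthlh* (-2.42, adjusted *P* = 0.023) and *Zbtb20* (-1.29, adjusted *P* = 0.0657) were called as well. Of all genes 18.4% were called in that fit. *Wwp2* read 147 to 174 NRPKM in the proliferative and 101, 25.9 and 29.6 in the hypertrophic libraries. Between proliferative and resting cells *Pth1r*, the receptor of PTHrP, rose (2.11, adjusted *P* = 0.00867) and *Pthlh*, which encodes PTHrP, fell (-2.24, adjusted *P* = 0.0343), against 5.53% of all genes called. With the replicate block these adjusted *P* values were 0.0659 and 0.0686. None of the 12 was called in *aadd* against resting, as 6.56% of all genes were. There 2 did not overlap, both lower, against 15.4% of all genes. The median of the 12 was -0.15 in hypertrophic against proliferative cells and -0.09 in *aadd* against resting.

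Of 12 genes reported as SOXC targets or partners, largely in neural cells, 9 passed the filter. In hypertrophic against proliferative libraries 4 were higher, *Dbn1* (1.89), *Marcksl1* (1.71), *Tead2* (1.58) and *Marcks* (1.29), and 2 lower, *Pou3f3* (-3.59) and *Gdf5* (-2.58), none with an adjusted *P* under 0.05 in limma. Of all genes 5.32% were called higher and 4.34% lower. Without hypertrophic replicate 1, 4 were higher and 4 lower, 7 of the 9 with an adjusted *P* under 0.05, as 17.4% of all genes had. *Dbn1* and *Marcksl1* act on the actin cytoskeleton, and *Tead2* is a partner of YAP. In *aadd* against resting libraries *Dcx* (1.96, adjusted *P* = 0.0888), *Gdf5* (1.44, adjusted *P* = 0.253) and *Marcks* (1.18, adjusted *P* = 0.319) were higher and *Pou3f3* (-0.69, adjusted *P* = 0.437) lower, against 6.56% of all genes called. *Dcx*, a microtubule gene of migrating neurons, read 5.01 to 8.88 NRPKM in resting and 20.2 to 31.7 in *aadd* libraries. The paper describes *Dcx* as a gene of articular chondrocytes, and a link of its level to the SoxC genes was not tested. *Dcx* was called lower in proliferative than in resting cells (-1.86, adjusted *P* = 0.081).

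Perichondrial and joint genes, 14 of 15 of which passed the filter, bear on the cells captured beside chondrocytes. In *aadd* against resting libraries 3 were higher and none lower, *Osr1* (2.01), *Gdf5* (1.44) and *Twist1* (1.39), with adjusted *P* between 0.0993 and 0.254, against 6.56% of all genes called. *Osr1* and *Gdf5* are known from the joint-forming region and connective tissue, and *Gdf5* also stands in the SOXC list above. *Osr2*, *Erg* and *Prg4* of the same list were not called. Mean NRPKM in resting and *aadd* was 10.07 and 12.89 for *Osr2* and 35.33 and 38.98 for *Erg*. *Prg4* read 1.509 to 34.36 in resting and 1.551 to 3.383 in *aadd* libraries. The paper also reports no rise of the joint markers *Osr2* and *Erg*. The summed level of the list was 495 to 883 NRPKM in resting and 586 to 1229 in *aadd* libraries, which overlapped, and its part in the SoxC values was not tested.

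Of 12 other *Sox* genes in the table, 4 passed the filter, and 8 reached at most 3.05 NRPKM. *Sox7* and *Sox18*, SoxF genes known from endothelium, read 7.08, 27.3 and 20.5 and 6.35, 41.0 and 27.6 NRPKM in the hypertrophic replicates, against at most 4.80 and 8.15 in the other groups. *Sox7* passed the filter through the hypertrophic libraries alone and *Sox18* largely so, and no test is given for them. *Sox13*, the other SoxD gene, read 9.07, 5.20 and 3.695 NRPKM in hypertrophic and 2.083, 1.165 and 1.195 in resting libraries, opposite in direction to *Sox5* and *Sox6*. It passed the filter through proliferative and hypertrophic libraries alone, so no test against resting cells is given for it. *Sox10* was called lower in hypertrophic than in resting cells only with hypertrophic replicate 1 left out (-4.55, adjusted *P* = 0.00605 in limma). It read 0.113 and 0.123 NRPKM in hypertrophic replicates 2 and 3, near the pseudocount of 0.1, which limits that value. With replicate 1, at 8.46 NRPKM, the groups overlapped and *Sox10* was not called (-2.79, adjusted *P* = 0.286). *Sox10* reached 13.6 NRPKM in 1 *aadd* library. With the replicate block *Sox10* was called lower in proliferative than in resting cells (-1.35, adjusted *P* = 0.22 in limma), and without the block it was not. *Sox3* was listed at 0 in every library.

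The genes whose profile lay closest to each member were found by the root mean square difference of mean-centred log2 values over the 12 libraries, which share groups and the split of the hypertrophic replicates. They were *Sorbs2*, *Nlgn3* and *Gfpt2* for *Sox9* (0.206 to 0.242), *LOC100861925*, *Zcchc5* and *Usp29* for *Sox5* (0.337 to 0.383), and, among those reported for *Sox6*, *Adcy2* and *Capn6* (0.165 and 0.195). For *Sox8* they were *Sorbs2os*, *Sorbs2* and *Usp29* (0.22 to 0.241). *Sorbs2* was thus among the nearest to both SoxE genes. The *Sorbs2* row overlaps those of *Sorbs2os* and *LOC100861925*, so these are not independent.

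For *Sox11* the nearest were *Tgfa*, *Ddah1* and *Maml2* (0.312 to 0.371) and for *Sox12* *Rps6ka4*, *Slc10a7* and *Cln6* (0.175 to 0.183). For *Sox4* they were *Sdc2*, *Zfp36* and *Sh3pxd2b* (0.245 to 0.256). *Sdc2*, a cell surface heparan sulfate proteoglycan gene, read 25.2 to 31.6 NRPKM in resting libraries and 53.5, 136 and 137 in the hypertrophic replicates. No gene was listed for more than 1 SoxC gene.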

How the data were processed

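The authors deposited RPKM values normalized further between libraries (NRPKM), 1 column per library, made in GeneSpring from reads aligned to mm10, with multiply aligned and duplicate reads removed. The submitters' processing notes name TopHat. RNA (laser capture, E15.5 forelimb) was amplified with the Ovation RNA-Seq System V2 and tagmented with Nextera. The scaling between libraries, the annotation release and the use of strand are not given in the sources used here. Reads were not analysed, and depth, read from the most frequent low value of single-exon receptor and keratin-associated genes, covers counting error only.

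Values were tested as log2(NRPKM + 0.1) with limma 3.58.1 in R 4.3.3 (Python 3.11.15, numpy 2.4.6, pandas 2.3.3, matplotlib 3.10.9, biopython 1.88 elsewhere), for the 10936 genes that reached 5 NRPKM in 3 or more libraries. All fold changes are on this scale. Each pair of groups used its 6 libraries and no covariate. A call was an unadjusted *P* up to 0.05 with a change of at least 2-fold (1.5 between *aadd* and resting, as the study used, while 2 was chosen for pairs without a stated limit), tests were two-sided, and Benjamini-Hochberg adjustment ran over all genes tested. An exact permutation test of 3 against 3 cannot go below 0.1. The procedure was tested on simulated data.

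The 7 *Sox* genes and all lists were chosen with earlier results of these data known. Genes named besides the 7 were the other *Sox* genes past the filter, up to 4 genes called with the largest change from a list in a comparison, the 3 genes nearest to each member (1 of those of *Sox6* is not reported here), and markers. *Col2a1*, *Col11a2*, *Hapln1*, *Arid5b*, *Zbtb20*, *Vegfa*, *Tnni1*, *Osr2*, *Erg*, *Prg4* and *Sox3* were named after their values were seen. Same-numbered resting and proliferative replicates deviated together from their group means across genes (*r* = 0.281, 0.179 and 0.198), so the numbers were read as pairs there. In no other pair of groups did all 3 correlations exceed 0.1. Alternatives tried were quantile normalization, rescaling by the median of ratios, a variance trend, omitting the filter, filtering over the 6 libraries compared, a larger pseudocount (1), the replicate block, all 12 libraries in 1 fit and leaving out each library.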

Additional observations from a re-analysis of the deposited data

How the results depend on the processing

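Of 588 values of the 7 genes under alternatives, 521 kept their direction and their side of the call, 50 kept direction and lost the call, 5 gained it and 12 changed sign, none of these called. The number of *Sox* genes called with no filter on low values was 3 in hypertrophic against proliferative cells, 3 in *aadd* against hypertrophic, 0 in *aadd* against resting and 2 over the 4 groups. It was 0 in *aadd* against resting with all 12 libraries in 1 fit. Leaving out 1 library gave 0 to 1 genes in proliferative against resting, 1 to 6 in hypertrophic against proliferative, 5 to 7 in hypertrophic against resting, 0 to 2 in *aadd* against resting, 2 to 6 in *aadd* against hypertrophic and 1 to 7 over the 4 groups. The fits with 2 libraries in a group assume the spread of the rest. The cause of these changes was not tested.

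Under quantile normalization *Sox9* had -0.077 in proliferative against resting, 0.013 in *aadd* against resting and 0.090 in *aadd* against proliferative. With rescaling by the median of ratios *Sox6* had -1.7e-05 in *aadd* against proliferative. With a library left out, *aadd* against resting gave -0.192 to 0.0050 for *Sox9* and -0.194 to 0.089 for *Sox5*, and *aadd* against proliferative gave -0.332 to 0.24 for *Sox11*, -0.035 to 0.219 for *Sox6* and -0.059 to 0.302 for *Sox4*. No scaling moved the median of all genes by over 0.1.

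The replicate block changed no count of called *Sox* genes (0 in proliferative against resting, 5 in hypertrophic against proliferative, 7 in hypertrophic against resting, 1 in *aadd* against resting, 0 in *aadd* against proliferative, 5 in *aadd* against hypertrophic and 4 over the 4 groups). In hypertrophic against resting cells the block left *Sox12* and *Sox4* at adjusted *P* of 0.0761 and 0.0501 in limma. Same-numbered replicates of these groups correlated weakly (*r* = 0.0657, 0.0628 and 0.111), so whether the numbers pair libraries there is not settled. Over all genes, the calls ranged from 446 to 1495 in proliferative against resting (605 as reported), 658 to 2007 in hypertrophic against proliferative (1057), 1196 to 2537 in hypertrophic against resting (1426), 528 to 1267 in *aadd* against resting (717), 714 to 1757 in *aadd* against proliferative (877) and 1205 to 2590 in *aadd* against hypertrophic (1456). Genes with an adjusted *P* under 0.05 in hypertrophic against proliferative numbered 0, or 1905 without hypertrophic replicate 1. Of the 21 nearest genes, 19 to 21 stayed nearest under a pseudocount of 1 or another scaling. Groups of 3 libraries and values of about 11 to 76 reads limit *Sox8* and *Sox5* in hypertrophic replicates 2 and 3.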
